A study of Mus musculus with 9 samples.

Results

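Among 9 RNA-seq libraries of leukocytes sorted from mouse fibrosarcomas, 4 held far more collagen and fibroblast RNA than the other 5, and this difference was the main axis of variation in the experiment. The 4 libraries are called stroma-rich here, a name for their transcripts and not for the cells they came from. They are replicate 3 of the doxorubicin + ADU-S100 combination, doxorubicin replicates 1 and 3, and control replicate 2. The 5 stroma-poor libraries are combination replicates 1 and 2, doxorubicin replicate 2, and control replicates 1 and 3. The sets were chosen from these same counts, by the level of collagen and fibroblast transcripts. The difference between the sets is therefore a description, and no p-value is given for it.

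All 9 libraries came from WEHI-164 tumors, a BALB/c fibrosarcoma line that was grown under the skin near the thigh of BALB/c mice. Combination tumors received doxorubicin, a chemotherapy drug that damages DNA, at 5 mg/kg weekly, and ADU-S100, a cyclic dinucleotide that activates the innate immune sensor STING, at 25 µg 2 times weekly, both injected into the tumor. Doxorubicin tumors received the drug alone and control tumors the vehicle, and each treatment group has 3 libraries. Tumors were taken 7 days after treatment and dissociated, and CD45+ cells were drawn out with magnetic beads. The libraries are described as biological triplicates, with no statement that each came from a single mouse, so the spread between them may include technical spread. Each treatment group contributed at least 1 library to each set, which allowed the sets to be compared inside every treatment. The mice, the graft and the sort were shared by all groups, so the sets differ by no label that the study gives.

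CD45, encoded by Ptprc, is a surface phosphatase that leukocytes carry and that fibroblasts, endothelial cells and sarcoma cells lack. Fibroblasts fill the spaces of a tissue with collagen fibers, proteoglycans and the enzymes that process them, and they keep a record of their place in the body in their HOX genes. A sarcoma line of fibroblast origin can make many of the same transcripts. How RNA of such cells came to be in the CD45+ preparations was not tested. In bulk libraries, fewer cells of a type and less RNA per cell cannot be told apart either. Nor can host fibroblasts be told apart from the grafted sarcoma cells by these gene counts.

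The genes behind the choice of the sets separated them without overlap. Col3a1 (chr1:45311538-45349706 on GRCm38), the chain of type III collagen, had 837, 317, 278 and 590 CPM (a count relative to the size of its library) in the stroma-rich libraries, against 35.2, 50.6, 38.1, 49.8 and 77.1 CPM in the stroma-poor libraries. Within each set, values are given here and below in the order combination, doxorubicin, control, and by replicate number inside each treatment. The lowest stroma-rich value was more than 3 times the highest stroma-poor value. Col1a1 (chr11:94936224-94953042), the main chain of type I collagen, had 135, 109, 44.0 and 188 CPM in the stroma-rich libraries, against 10.5, 27.4, 17.7, 23.9 and 19.6 CPM in the stroma-poor libraries. Its margin was narrower, and doxorubicin replicate 3 was the nearest of the stroma-rich libraries. Over 38 collagen and fibroblast genes, mean log2 CPM was 4.16 in combination replicate 3 and 3.75 in control replicate 2. Doxorubicin replicate 1 had a mean of 3.01, and doxorubicin replicate 3, the library just inside the choice, had 2.88. Control replicate 3, the library just outside it, had a mean of 1.69, and the other stroma-poor libraries had 1.02 to 1.54. Ptprc (chr1:138062859-138175756), by contrast, was abundant in every library, with 189, 383, 409 and 303 CPM in the stroma-rich libraries against 361, 627, 360, 551 and 376 CPM in the stroma-poor libraries. The sets overlapped for Ptprc, and the lowest value was that of combination replicate 3.

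**Figure D1:**
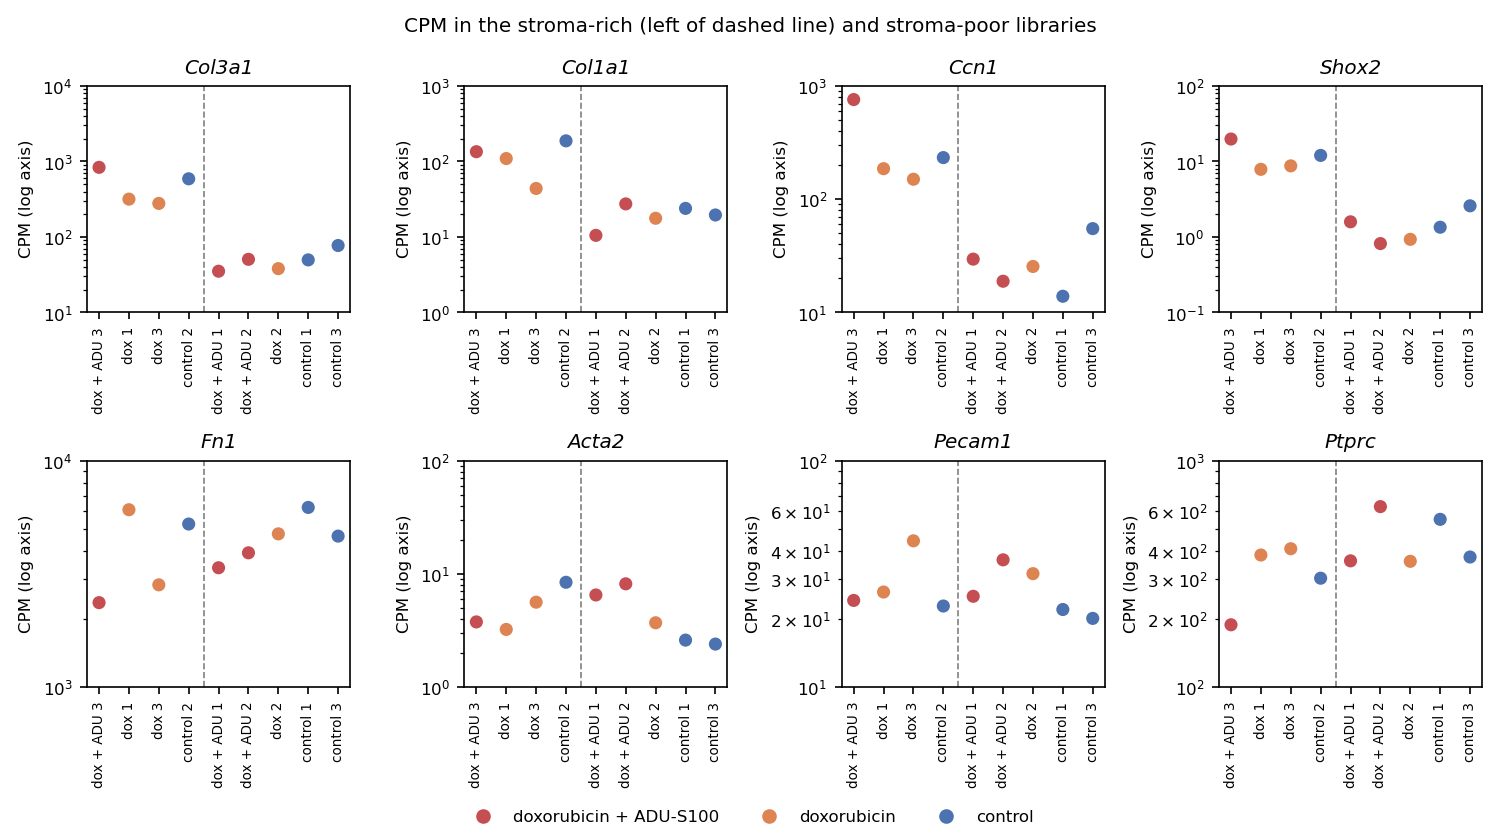
CPM of 8 genes in each of the 9 libraries on log axes, with the 4 stroma-rich libraries left of the dashed line and the 5 stroma-poor libraries right of it; each point is a library. Col3a1, Col1a1, Ccn1 and Shox2 separated the sets without overlap, whereas Fn1, Acta2, Pecam1 and Ptprc did not.

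Total counts were 50110494 to 69456603 in the stroma-rich and 52909751 to 66413667 in the stroma-poor libraries, so depth did not separate the sets. The stroma-rich libraries had 13032 to 13178 genes at 1 CPM or more, against 12368 to 12798 in the stroma-poor libraries. Mitochondrially encoded RNA took 1.97% to 7.62% of counts in the stroma-rich and 1.26% to 13.1% in the stroma-poor libraries. Of 16373 genes tested, 1315 were called higher in the stroma-rich libraries, which is 8.03% of the genes. Called means a fitted log2 difference over 1, with treatment as a covariate, and no overlap between the 4 and the 5 libraries. Only 49 genes (0.299%) were called lower, with the same size and separation in the other direction. Of any size, 1586 genes (9.69%) lay above and 382 genes (2.33%) lay below without overlap. The median over all tested genes was -0.06, against which the medians of the gene lists below are read. The count of lower genes was 235 without doxorubicin replicate 3, 140 without control replicate 1, 125 without control replicate 3, 123 without doxorubicin replicate 2, 103 without doxorubicin replicate 1, 88 without control replicate 2 and 76 without combination replicate 2.

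The 1315 genes called higher made up a small part of each library. They took 4.00% of counts in combination replicate 3, 1.58% and 1.47% in doxorubicin replicates 1 and 3, and 2.16% in control replicate 2, against 0.374%, 0.392%, 0.433%, 0.503% and 0.608% in the 5 stroma-poor libraries. The collagens alone took 0.248%, 0.148%, 0.109% and 0.195% of counts in the stroma-rich libraries, against 0.0175%, 0.0344%, 0.0291%, 0.0369% and 0.0470% in the stroma-poor libraries. The 20 pan-leukocyte genes took 0.596% to 1.18% in the stroma-rich and 1.05% to 1.26% in the stroma-poor libraries, ranges that overlap. The widest 95% Wilson interval of these shares reached 0.00813 percentage points to each side, which covers counting error only.

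**Figure D2:**
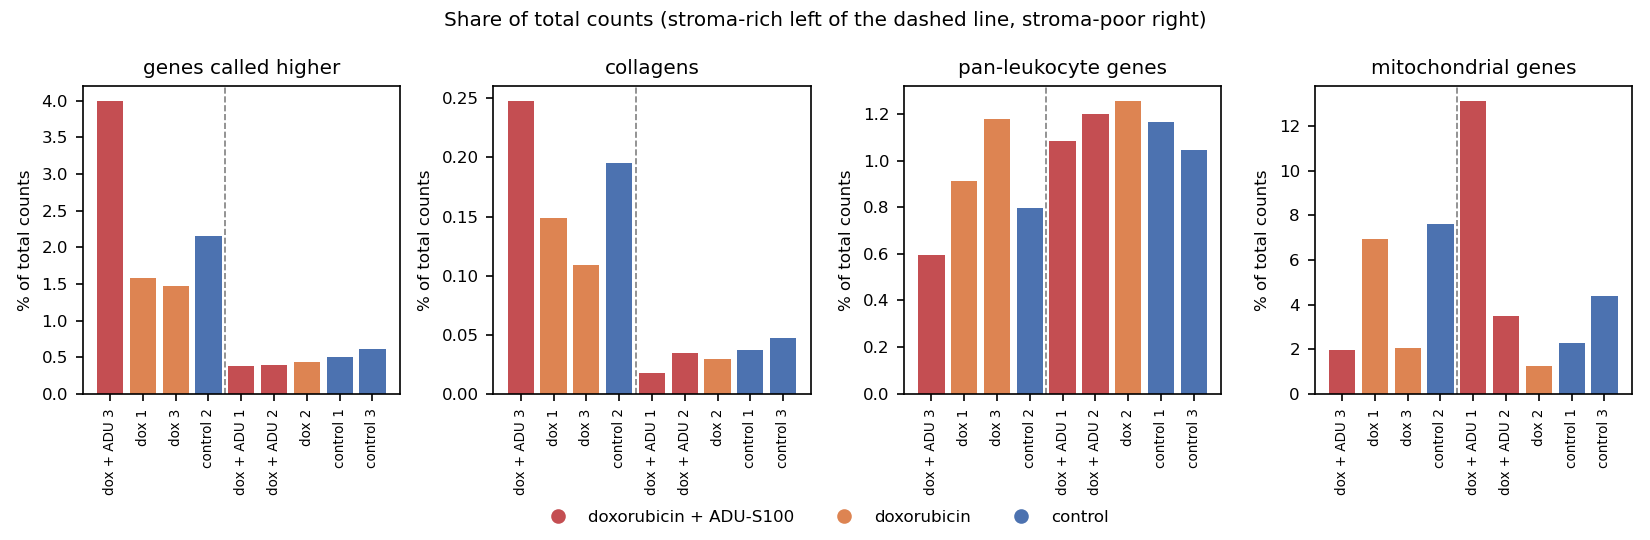
Share of the total counts of each library, in percent, taken by the genes called higher, the collagens, the pan-leukocyte genes and mitochondrially encoded RNA, with stroma-rich libraries left of stroma-poor libraries and 1 bar for each library. The genes called higher took 1.47% to 4.00% of counts in the stroma-rich libraries and 0.374% to 0.608% in the stroma-poor libraries, while mitochondrially encoded RNA overlapped between the sets.

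The fibrillar collagens, which assemble into the fibers that give connective tissue its strength, were higher in the stroma-rich libraries for 6 of the 9 tested members (11 listed), with a median log2 difference of 2.84. The share of members called was well above the 8.03% of all genes, but collagens were among the values that chose the sets, and nothing is read from it. Col1a2, the partner chain of Col1a1, had 163, 122, 54.4 and 210 CPM in the stroma-rich against 16, 28.5, 16.9, 19.8 and 24.2 CPM in the stroma-poor libraries. Col5a2, a chain of type V collagen that starts fiber assembly, had 144, 58.9, 45.8 and 89.8 CPM against 8.81, 8.39, 7.33, 8.58 and 15.0 CPM in the stroma-poor libraries. The log2 difference was 3.50 for Col3a1, 3.30 for Col5a2, 2.84 for Col1a2 and 2.68 for Col1a1. Inside the treatments, the Col3a1 difference was 4.31 in combination, 2.96 in doxorubicin and 3.25 in control tumors, and that of Col1a1 was 2.99, 1.97 and 3.12. Col5a1 and Col5a3 were also called. Col27a1 (0.92) and Col11a2 (0.99), collagens best known from cartilage, fell short of a log2 difference of 1, and Col11a1 (1.84) overlapped between the sets. Col2a1, the collagen of cartilage, and Col24a1 had at most 7 counts in any library and were not tested.

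Type I and type III collagen did not stand in the same proportion in the 4 stroma-rich libraries. The ratio of Col1a1 to Col3a1 counts was 0.161 in combination replicate 3 and 0.158 in doxorubicin replicate 3, but 0.345 in doxorubicin replicate 1 and 0.318 in control replicate 2. The stroma-poor libraries ran from 0.254 in control replicate 3 to 0.542 in combination replicate 2. Combination replicate 3 thus had the highest Col3a1 level of all libraries, while control replicate 2 had the highest Col1a1 and Col1a2 levels.

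Of the other collagens, 10 of the 13 tested (15 listed) were called higher, beside 8.03% of all genes, with a median of 2.82. As for the fibrillar collagens, nothing is read from this share. Col6a3, a chain of the beaded microfilaments that link cells to the matrix, had 205, 100, 67.5 and 148 CPM in the stroma-rich against 13.1, 8.77, 9.84, 13.7 and 21.3 CPM in the stroma-poor libraries. Col16a1, a collagen that decorates fibrils, had the largest difference of the list (3.66), with 99.8, 29.7, 23.3 and 41.9 CPM against 5.63, 2.29, 3.30, 2.45 and 6.45 CPM in the stroma-poor libraries. The basement membrane chains Col4a1 and Col4a2, which endothelial cells also make, were called with small differences of 1.09 and 1.06. For Col4a1 the highest stroma-poor library was combination replicate 2 (71.9 CPM), close to the lowest stroma-rich library, combination replicate 3 (79.1 CPM). Col14a1, a fibril-associated collagen that mature fibroblasts make, was the exception in direction. It had 39.4, 148, 80.9 and 68.7 CPM in the stroma-rich against 24.9, 83.9, 102, 109 and 149 CPM in the stroma-poor libraries, a log2 difference of -0.40 with full overlap. Col15a1 (0.78) and Col18a1 (1.12), of vascular basement membranes, were not called.

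Matrix glycoproteins were divided, with 14 of 27 tested members (28 listed) called higher, beside 8.03% of all genes, and a median of 2.1. Sparc, a collagen-binding protein, had 600, 220, 274 and 330 CPM in the stroma-rich against 71.8, 94.3, 65.2, 50.8 and 102 CPM in the stroma-poor libraries, a log2 difference of 2.30. Fbn1 (3.33), the fibrillin of elastic microfibrils, Ltbp1 (3.35), which stores latent TGF-beta in the matrix, Thbs2 (3.34), a matricellular thrombospondin, and Postn (2.58), periostin, also separated the sets. Fbn2, the second fibrillin, had the largest difference of the list (3.80) but reached at most 0.579 CPM. Several abundant matrix genes did not separate the sets at all. Fn1, fibronectin, had 2362, 6075, 2831 and 5253 CPM in the stroma-rich against 3368, 3920, 4753, 6219 and 4646 CPM in the stroma-poor libraries, a log2 difference of -0.25. Thbs1 (-0.14), Ecm1 (-0.57) and Emilin1 (0.01) overlapped in the same way. Thbs1 had 168, 233, 183 and 282 CPM in the stroma-rich against 371, 360, 222, 256 and 114 CPM in the stroma-poor libraries. Macrophages as well as fibroblasts make fibronectin and thrombospondin 1, and these abundant genes did not follow the collagens across the libraries.

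The proteoglycans, core proteins that carry sugar chains or bind collagen fibrils, were called higher in 9 of 10 cases, with a median of 3.05. All genes had a share of 8.03%. Proteoglycans are part of the 38 collagen and fibroblast genes above, so nothing is read from their share. Hspg2, perlecan of basement membranes, had 142, 82.0, 53.3 and 79.6 CPM in the stroma-rich against 14.3, 10.3, 10.1, 10.6 and 15.7 CPM in the stroma-poor libraries. Lum, lumican of collagen fibrils, had the largest difference of the list (3.88), with 5.28, 2.35, 1.45 and 7.81 CPM against 0.0369, 0.587, 0.213, 0.478 and 0.333 CPM in the stroma-poor libraries. The small leucine-rich members Ogn (3.54), Aspn (3.36), Dcn (2.79) and Bgn (2.08) had the same direction in every treatment. Vcan, versican, which monocytes also make, was the exception, with 168, 65.2, 71.9 and 111 CPM in the stroma-rich against 148, 52.3, 54.6, 67.2 and 43.3 CPM in the stroma-poor libraries. Combination replicate 1 had the second highest Vcan level of all 9 libraries although its collagens were low.

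Of the enzymes and chaperones of collagen processing, 13 of 20 were called higher, beside 8.03% of all genes, with a median of 2.21. Lox, the oxidase that crosslinks collagen and elastin, had 175, 44.7, 38.5 and 91.6 CPM in the stroma-rich against 6.00, 8.10, 6.15, 5.94 and 7.19 CPM in the stroma-poor libraries, a log2 difference of 3.74. Pcolce (3.17), which speeds the trimming of procollagen, Plod2 (3.15), which hydroxylates collagen telopeptides, and Serpinh1 (2.89), the collagen chaperone HSP47, also separated the sets. Serpinh1 had 499, 188, 171 and 265 CPM in the stroma-rich against 41.4, 31.6, 41.3, 23.2 and 55.2 CPM in the stroma-poor libraries. The 7 members that were not called included Plod1 (-0.03), Plod3 (0.08) and P4ha1 (0.19), hydroxylases of the endoplasmic reticulum, and Ppib (0.04), a prolyl isomerase, whose values overlapped. The others were P4ha2 (0.46) and P3h1 (0.43), also hydroxylases, and Crtap (0.92), a cofactor of prolyl hydroxylation. In the general secretory pathway, of the same compartment, 1 of 15 genes was called, beside 8.03% of all genes. It was the KDEL receptor Kdelr3, and the median of the list was 0.15.

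Metalloproteinases and their inhibitors had 7 of 18 members called higher, beside 8.03% of all genes, and a median of 0.80. Timp3, an inhibitor bound to the matrix, had 234, 65.2, 61.2 and 96.4 CPM in the stroma-rich against 15.2, 21.3, 12.3, 12.0 and 18.3 CPM in the stroma-poor libraries, a log2 difference of 2.92. Mmp2 (2.60), Mmp11 (2.45), Mmp23 (2.88), Adamts1 (2.06), Adamts5 (2.95) and Adamts12 (2.92) were the others called. Mmp3, stromelysin 1, had the largest difference of the list (3.17) but overlapped, with 7.10 CPM in combination replicate 3 and 0.595 CPM in doxorubicin replicate 3 against 0.106 to 0.739 CPM in the stroma-poor libraries. Mmp12, the macrophage elastase, had 265, 407, 616 and 766 CPM in the stroma-rich against 437, 716, 588, 551 and 257 CPM in the stroma-poor libraries, a log2 difference of -0.06. Mmp8 (-0.64), the neutrophil collagenase, Mmp13 (-0.14), Mmp14 (-0.33) and Mmp19 (-0.51) were not called either.

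**Figure D3:**
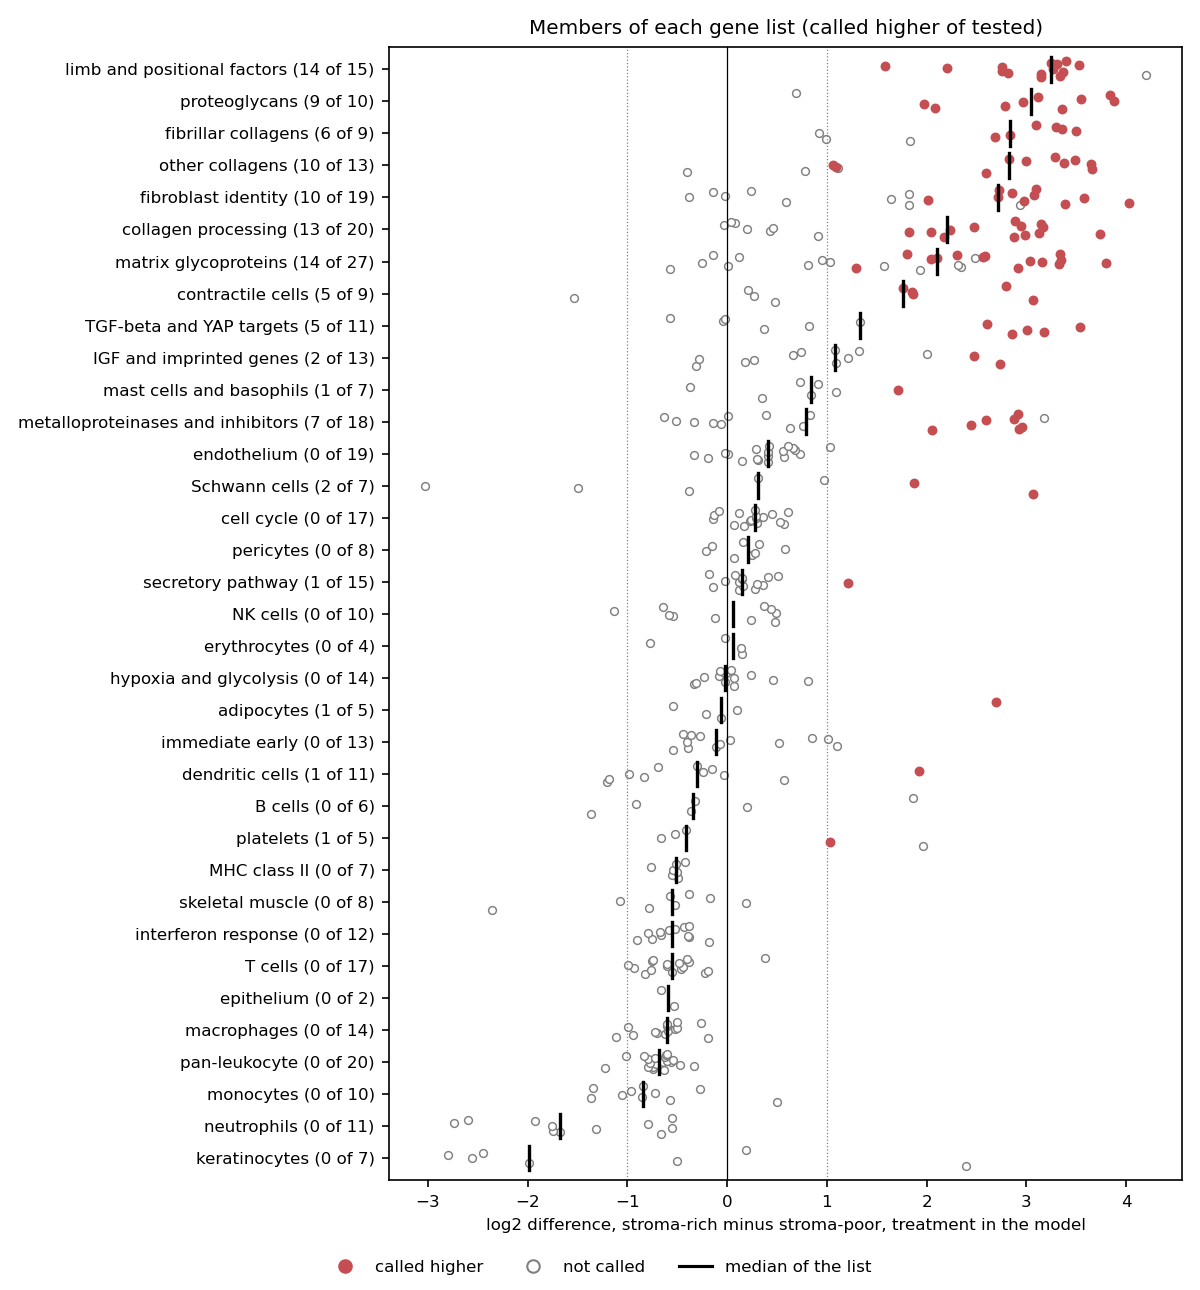
Fitted log2 difference, stroma-rich minus stroma-poor, of each tested member of the gene lists; each point is a gene, filled points are genes called higher, and the bar is the median of the list. Proteoglycans (median 3.05) and limb and positional factors (median 3.25) lie far above 0, endothelium (0.41) and pericytes (0.20) lie near 0, and neutrophil genes (median -1.67) lie below it.

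Genes of fibroblast identity were called higher for 10 of 19 tested members (20 listed), beside 8.03% of all genes, with a median of 2.72. Fibroblast transcripts were among the values that chose the sets, so nothing is read from this share. Pdgfra, the growth factor receptor that marks fibroblasts, had 13.9, 3.27, 2.58 and 7.08 CPM in the stroma-rich against 0.388, 0.608, 0.466, 0.549 and 1.05 CPM in the stroma-poor libraries. Ddr2 (3.38), a receptor for fibrillar collagen, and Fstl1 (2.98), a secreted glycoprotein of mesenchyme, were more abundant. Fstl1 had 213, 59.9, 75.8 and 119 CPM in the stroma-rich against 15.4, 13.4, 15.3, 10.7 and 21.6 CPM in the stroma-poor libraries. Dpt (4.03), dermatopontin of the dermis, had the largest difference of the list. The mesenchymal transcription factors Prrx1 (3.07), Twist1 (2.73), Twist2 (3.10) and Snai2 (2.86) were all called.

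Fibroblast markers in wide use were not all higher. Fap, the fibroblast activation protein, had 1.27, 0.637, 0.479 and 1.09 CPM in the stroma-rich against 0.757, 1.03, 0.407, 0.319 and 0.924 CPM in the stroma-poor libraries. Thy1 (0.24) had its highest value, 31.3 CPM, in doxorubicin replicate 3, a library that also had the highest T cell transcripts, such as Cd3g at 12.8 CPM. T cells of the mouse express Thy1, and the part of T cells in the Thy1 values was not tested. Pi16 (-0.02), a marker of adventitial fibroblasts, was nearly level, at 17.9 to 22.0 CPM in the stroma-rich and 16 to 23.1 CPM in the stroma-poor libraries. Pdpn (-0.39), podoplanin, which macrophages can express, had 134, 238, 193 and 351 CPM in the stroma-rich against 373, 378, 319, 248 and 200 CPM in the stroma-poor libraries.

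Of the limb and positional factors, transcription factors that mark a place in the body, 14 of 15 tested members (18 listed) were called higher, beside 8.03% of all genes, with a median of 3.25. Shox2 (chr3:66971723-66981771), a homeobox factor of the proximal limb, had 19.8, 7.87, 8.75 and 12.0 CPM in the stroma-rich against 1.59, 0.818, 0.931, 1.35 and 2.59 CPM in the stroma-poor libraries. Hoxa11 (chr6:52242105-52245810), which patterns the middle segment of the limb, had 13.7, 6.35, 4.20 and 7.69 CPM against 0.702, 0.587, 0.815, 0.673 and 1.52 CPM in the stroma-poor libraries. Hoxc10, a factor of the hindlimb and lower trunk, had 17.4, 6.15, 6.09 and 8.55 CPM against 1.27, 0.378, 1.09, 1.29 and 1.89 CPM in the stroma-poor libraries. In each of these genes combination replicate 3 was the highest of all libraries. Tbx15 (3.25) and Tbx18 (3.40), T-box factors of limb and trunk mesenchyme, Meis2 (3.53), a HOX cofactor, and Hoxd10 (3.27) had the same direction in every treatment. The largest difference, that of Hoxa9 (4.20), was not a call, since doxorubicin replicate 3 (0.413 CPM) lay below control replicate 3 (0.536 CPM). Meis1 (1.58), which blood cells also express, had the smallest difference. The factors that set the identity of a limb as hind or fore gave almost no counts. Pitx1 had at most 2 counts in any library, Tbx4 had 0 and Tbx5 had at most 2, so none of them was tested.

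Targets of TGF-beta and of the mechanosensitive coactivator YAP fell into members that followed the collagens and members that did not. Of 11 members, 5 were called higher, beside 8.03% of all genes, and the median was 1.34. YAP works through TEAD factors on DNA and is active in spread, adherent cells. Ccn1 (chr3:145646971-145649985), a secreted matricellular protein and classic YAP target, had 759, 186, 150 and 233 CPM in the stroma-rich against 29.6, 18.9, 25.5, 13.9 and 55.0 CPM in the stroma-poor libraries, a log2 difference of 3.53. Amotl2 (3.18), an angiomotin that restrains YAP, had 74.4, 18.4, 18.4 and 28 CPM against 5.01, 3.42, 3.20, 2.89 and 5.21 CPM in the stroma-poor libraries. Ankrd1 (3.00), a nuclear ankyrin repeat protein, Ajuba (2.86), a LIM protein, and Ccn4 (2.60), a relative of Ccn1, were the others called. Ccn2, connective tissue growth factor and the other textbook target, had only 7.68, 8.31, 6.61 and 5.58 CPM in the stroma-rich against 2.70, 5.96, 5.26, 2.23 and 2.85 CPM in the stroma-poor libraries, and its difference of 0.82 was short of 1. Tgfbi (-0.57) and Axl (0.37), both made by macrophages too, were not called. The median of this list was 0.82 without combination replicate 3 and 2.15 without doxorubicin replicate 2.

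Promoter sequence of 3 of these YAP targets and of Col3a1 is shown because the genes moved together across the libraries. It is RefSeq sequence of GRCm38.p6, from 250 bases before to 50 bases after the annotated start, written 5′ to 3′ on the strand of the gene, with matches to the TEAD motif GGAATG, or its reverse complement CATTCC, in capitals. The windows are chr3:145649936-145650235 on the minus strand for Ccn1, chr9:102717554-102717853 on the plus strand for Amotl2, chr19:36119795-36120094 on the minus strand for Ankrd1 and chr1:45311288-45311587 on the plus strand for Col3a1.
Ccn1: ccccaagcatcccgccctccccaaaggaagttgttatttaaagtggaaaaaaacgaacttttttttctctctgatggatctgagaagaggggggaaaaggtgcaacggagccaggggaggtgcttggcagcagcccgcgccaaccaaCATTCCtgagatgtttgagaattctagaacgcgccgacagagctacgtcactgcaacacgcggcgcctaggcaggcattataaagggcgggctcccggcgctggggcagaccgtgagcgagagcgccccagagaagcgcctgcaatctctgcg
Amotl2: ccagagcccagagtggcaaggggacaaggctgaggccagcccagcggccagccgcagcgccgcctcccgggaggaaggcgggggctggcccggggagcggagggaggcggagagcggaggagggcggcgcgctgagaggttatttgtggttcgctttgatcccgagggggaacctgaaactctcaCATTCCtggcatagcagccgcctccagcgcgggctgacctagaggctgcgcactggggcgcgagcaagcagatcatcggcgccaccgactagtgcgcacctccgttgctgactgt
Ankrd1: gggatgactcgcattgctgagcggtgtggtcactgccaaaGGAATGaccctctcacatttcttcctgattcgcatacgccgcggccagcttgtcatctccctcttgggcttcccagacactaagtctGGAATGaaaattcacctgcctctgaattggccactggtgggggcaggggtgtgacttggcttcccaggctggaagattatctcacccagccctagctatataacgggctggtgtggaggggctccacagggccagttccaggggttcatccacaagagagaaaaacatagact
Col3a1: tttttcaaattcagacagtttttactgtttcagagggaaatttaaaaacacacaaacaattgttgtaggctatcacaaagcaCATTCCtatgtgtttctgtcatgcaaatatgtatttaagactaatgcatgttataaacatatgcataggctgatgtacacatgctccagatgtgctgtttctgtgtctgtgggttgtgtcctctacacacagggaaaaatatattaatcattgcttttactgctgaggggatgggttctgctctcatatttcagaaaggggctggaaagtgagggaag
Ccn1, Amotl2 and Col3a1 held 1 match each and Ankrd1 held 2. On either strand, GGAATG was found in 5 of the 6 genes of the list with a window (Ccn1, Ankrd1, Amotl2, Ajuba and Axl), in 5 of 7 contractile genes and in 1 of 7 fibrillar collagens, beside 16.6% of the 27025 genes in the table. Axl held the motif and was not called. Fibrillar collagens with a window and no match included Col1a2 and Col5a3, which were called, and Col11a1 and Col11a2, which were not. Not all of them are named here, so nothing is read from this split. A match in these letters is a description and was not tested for binding.

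Of the contractile genes, 5 of 9 tested members (12 listed) were called higher, beside 8.03% of all genes, and the median was 1.76. Those called were Tpm1 (1.76) and Tpm2 (2.80), tropomyosins, Cald1 (3.06), caldesmon, Mylk (1.87), myosin light chain kinase, and Smtn (1.86), smoothelin. Cald1 had 180, 55.5, 56.6 and 107 CPM in the stroma-rich against 12.8, 10.8, 11.1, 12.3 and 16.3 CPM in the stroma-poor libraries. Acta2, smooth muscle actin and a marker of myofibroblasts, was not called. It had 3.77, 3.24, 5.63 and 8.44 CPM in the stroma-rich against 6.52, 8.18, 3.71, 2.61 and 2.40 CPM in the stroma-poor libraries. Tagln (0.21), Myl9 (0.27) and Myh11 (-1.54) overlapped too, and Myh11 was at 0 counts in 2 of the 4 stroma-rich libraries. Acta2, Tagln and Myl9 were lower in the stroma-rich library of the combination group and higher in that of the control group, with Acta2 differences of -0.95 in combination, 0.20 in doxorubicin and 1.74 in control tumors. The list median was 0.92 without control replicate 2 and 1.12 without combination replicate 1.

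Pericyte and endothelial genes gave no call in either direction. Of 8 pericyte genes, the highest difference was that of Mcam (0.58), and Rgs5, a regulator of G protein signaling in pericytes, had 1.28, 6.38, 5.75 and 12.2 CPM in the stroma-rich against 5.75, 12.9, 3.14, 4.93 and 5.90 CPM in the stroma-poor libraries. Of 19 endothelial genes the median was 0.41, and 16 differences were above 0. Pecam1, the junction protein CD31, had 24.2, 26.3, 44.3 and 22.8 CPM in the stroma-rich against 25.2, 36.5, 31.7, 22.0 and 20.1 CPM in the stroma-poor libraries. Cdh5, VE-cadherin, had 9.56, 19, 25.7 and 14.2 CPM against 8.26, 18.5, 9.58, 9.82 and 10.6 CPM in the stroma-poor libraries. Endothelial transcripts were thus present in all 9 libraries, with a summed level of the list of 153 to 249 CPM in the stroma-rich and 116 to 242 CPM in the stroma-poor libraries. The median of the list was -0.33 in combination, 0.89 in doxorubicin and 0.78 in control tumors, and over all treatments it was 0.19 without doxorubicin replicate 2, 0.22 without control replicate 2 and 0.72 without combination replicate 3. Of the lymphatic genes only Flt4 (0.12) passed the filter, and Prox1, the defining factor, had at most 2 counts.

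Markers of other tissues near a graft under the skin of the thigh gave few calls. Skeletal muscle genes had a median of -0.55 over 8 tested members (16 listed) with no call, and Acta1, skeletal actin, had at most 1.61 CPM. Keratinocyte genes, 7 tested of 12 listed, came mainly from 1 stroma-poor library. Combination replicate 2 had 28.6 CPM of Krt10, 17.8 CPM of Krt1 and 3.06 CPM of Krt5, keratins of the epidermis, whereas Krt10 was 0.974 to 2.80 CPM in the stroma-rich and 1.01 to 1.59 CPM in the other stroma-poor libraries. The keratinocyte median of -1.99 turned to 0.24 without that library and to 0.54 without combination replicate 3. Of 5 adipocyte genes tested (10 listed), 1 was called, Plin4 (2.69), a coat protein of lipid droplets. The definers Adipoq and Plin1 had at most 25 and 20 counts and were not tested. Of 7 Schwann cell genes tested (8 listed), 2 were called, with the largest difference for Cdh19 (3.07), a cadherin. The defining factor Sox10 had at most 2 counts. Epithelial genes gave no call, and the keratins Krt8, Krt18 and Krt19 had at most 15 counts each. Hemoglobin genes reached at most 6.34 CPM and did not separate the sets.

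All 20 pan-leukocyte genes had a negative difference, with a median of -0.68 beside -0.06 over all genes. Scaling the libraries on these same genes puts their median near 0 by construction (0.01) and lifts the median of all genes to 0.64, so the sign of a leukocyte list is read here only relative to the median of all genes. Coro1a, an actin regulator of leukocytes, had 530, 634, 1070 and 510 CPM in the stroma-rich against 1353, 1094, 1035, 710 and 1171 CPM in the stroma-poor libraries. Laptm5, a lysosomal protein of leukocytes, had 710, 1173, 1271 and 880 CPM against 1391, 1287, 1511, 1453 and 1193 CPM in the stroma-poor libraries. No pan-leukocyte gene was called lower, and the median was -0.42 without combination replicate 3. Macrophage genes had a median of -0.60 under the main scaling and 0.10 under leukocyte scaling, below the median of all genes under both. Csf1r, the macrophage growth factor receptor, had 638, 1512, 1084 and 876 CPM in the stroma-rich against 1025, 1206, 1288, 1498 and 1309 CPM in the stroma-poor libraries. Under the main and the leukocyte scaling, the medians were -0.51 and 0.19 for MHC class II genes, -0.55 and 0.19 for T cell genes, -0.55 and 0.10 for interferon response genes, -0.85 and -0.16 for monocyte genes and -1.67 and -0.82 for neutrophil genes, each below the median of all genes under the same scaling. Leukocyte scaling shifted these lists and the median of all genes by similar amounts. The place of a list under it thus largely follows from the main scaling and is no separate check. Without combination replicate 3, the monocyte median was -0.34 and the interferon response median was -0.08, beside -0.05 over all genes. Inside the treatments, the interferon response median was -1.69 in combination, -0.03 in doxorubicin and -0.15 in control tumors. The low interferon response median thus rested mainly on combination replicate 3.

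Promoter sequence of Ptprc and Laptm5 is shown beside the genes above as a contrast, in the same RefSeq build, window and notation, with matches to the short ETS motif GGAAGT or its reverse complement ACTTCC in capitals. ETS factors such as PU.1 drive many leukocyte genes. The windows are chr1:138175256-138175555 on the minus strand for Ptprc and chr4:130913066-130913365 on the plus strand for Laptm5. That of Ptprc is 1 of 2 windows of this gene in the table, taken as the first to hold a match.
Ptprc: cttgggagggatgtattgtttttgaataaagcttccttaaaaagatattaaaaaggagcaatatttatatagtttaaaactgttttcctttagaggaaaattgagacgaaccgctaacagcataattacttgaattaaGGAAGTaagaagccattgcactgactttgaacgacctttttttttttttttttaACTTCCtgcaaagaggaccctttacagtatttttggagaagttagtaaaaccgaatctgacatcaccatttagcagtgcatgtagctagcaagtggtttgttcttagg
Laptm5: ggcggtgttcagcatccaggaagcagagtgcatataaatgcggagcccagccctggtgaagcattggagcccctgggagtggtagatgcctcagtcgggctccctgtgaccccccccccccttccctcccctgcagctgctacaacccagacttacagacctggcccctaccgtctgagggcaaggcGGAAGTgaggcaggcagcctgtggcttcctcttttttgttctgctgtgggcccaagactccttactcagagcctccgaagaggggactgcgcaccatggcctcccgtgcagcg
The motif was found in 12 of 16 pan-leukocyte genes, 6 of 9 macrophage genes and 0 of 7 fibrillar collagens with a window, beside 26.5% of all genes in the table. It shares the letters GGAA with the TEAD motif, and Ccn1 was the only TGF-beta and YAP target with a match to both.

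Neutrophil genes had the largest negative median of the leukocyte lists, but no member was called, and doxorubicin replicate 3 stood apart from the other stroma-rich libraries. S100a9, a calcium-binding protein of neutrophils, had 10.1, 10.5, 274 and 4.52 CPM in the stroma-rich against 123, 155, 63.7, 97.6 and 24.9 CPM in the stroma-poor libraries. S100a8, its partner, had 4.78, 6.71, 113 and 7.49 CPM against 54.4, 58.9, 49.5, 50.2 and 19.6 CPM in the stroma-poor libraries. Of the stroma-rich libraries 3 were thus below all stroma-poor libraries for both genes, and doxorubicin replicate 3 was above them all. Cxcr2 (-1.67), the chemokine receptor of neutrophils, and Csf3r (-0.66), their growth factor receptor, had the same pattern in doxorubicin replicate 3. The list median was -0.84 without control replicate 1, -0.80 without control replicate 2, -0.96 without combination replicate 3 and -2.52 without doxorubicin replicate 2. T cell genes followed doxorubicin replicate 3 as well, with Cd8a at 0.633, 0.600, 15.6 and 0.214 CPM in the stroma-rich against 0.222, 3.17, 4.68, 1.90 and 0.444 CPM in the stroma-poor libraries. The direction of the T cell list was not stable, with a median of 0.14 without control replicate 2, 0.10 without combination replicate 2 and 0.41 with no treatment term, beside -1.53 without doxorubicin replicate 3. NK cell genes gave no call and had a median of 0.06, which lay between -0.68 without doxorubicin replicate 3 and 0.75 without control replicate 2. B cell genes gave no call either, and their median of -0.34 was 0.80 without control replicate 2 and -0.82 without doxorubicin replicate 2.

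A single gene was called in each of the lists of dendritic cells (11 tested), mast cells and basophils (7 tested) and platelets (5 tested), beside 8.03% of all genes. Fscn1 (1.93), fascin, which bundles actin in mature dendritic cells and in migrating mesenchymal cells, had 180, 49.8, 73.1 and 80.1 CPM in the stroma-rich against 26.6, 25.7, 26.1, 18.5 and 29.6 CPM in the stroma-poor libraries. The other dendritic cell genes had no call, and Ccr7, which marks the same mature cells, had a difference of -0.83. Gata2 (1.71) was the only call among genes of mast cells and basophils, whose proteases Cpa3, Mcpt4 and Tpsb2 overlapped. Itga2b (1.03) was the only call among platelet genes, while the chemokine Pf4 had a difference of -0.66. The median of the mast cell list was 0.85 and became -0.95 without combination replicate 3.

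Cell cycle genes had no call and a median of 0.28 over 17 genes, which was -0.12 without combination replicate 3 and 0.58 without doxorubicin replicate 2. Hypoxia and glycolysis genes had a median of -0.02 over 14 genes, and immediate early genes, which respond to dissociation of a tissue, a median of -0.11 over 13 genes. Among the immediate early genes, Jun (0.85), Egr1 (1.10) and Ier2 (1.02) were the highest and overlapped between the sets. Among IGF system and imprinted genes, 2 of 13 tested members (16 listed) were called, beside 8.03% of all genes. With so few members, nothing about the list is read from this count. The members called were Grb10 (2.74), an adaptor that restrains insulin signaling, and Igfbp6 (2.48), a binding protein with a preference for IGF2. Igfbp6 had 117, 23.2, 31.6 and 35.1 CPM in the stroma-rich against 12.6, 5.35, 8.75, 3.90 and 13.6 CPM in the stroma-poor libraries. Igf2 itself had at most 25 counts in any library. The list median of 1.09 was 0.59 without control replicate 1 and 0.67 without control replicate 2.

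**Figure D4:**
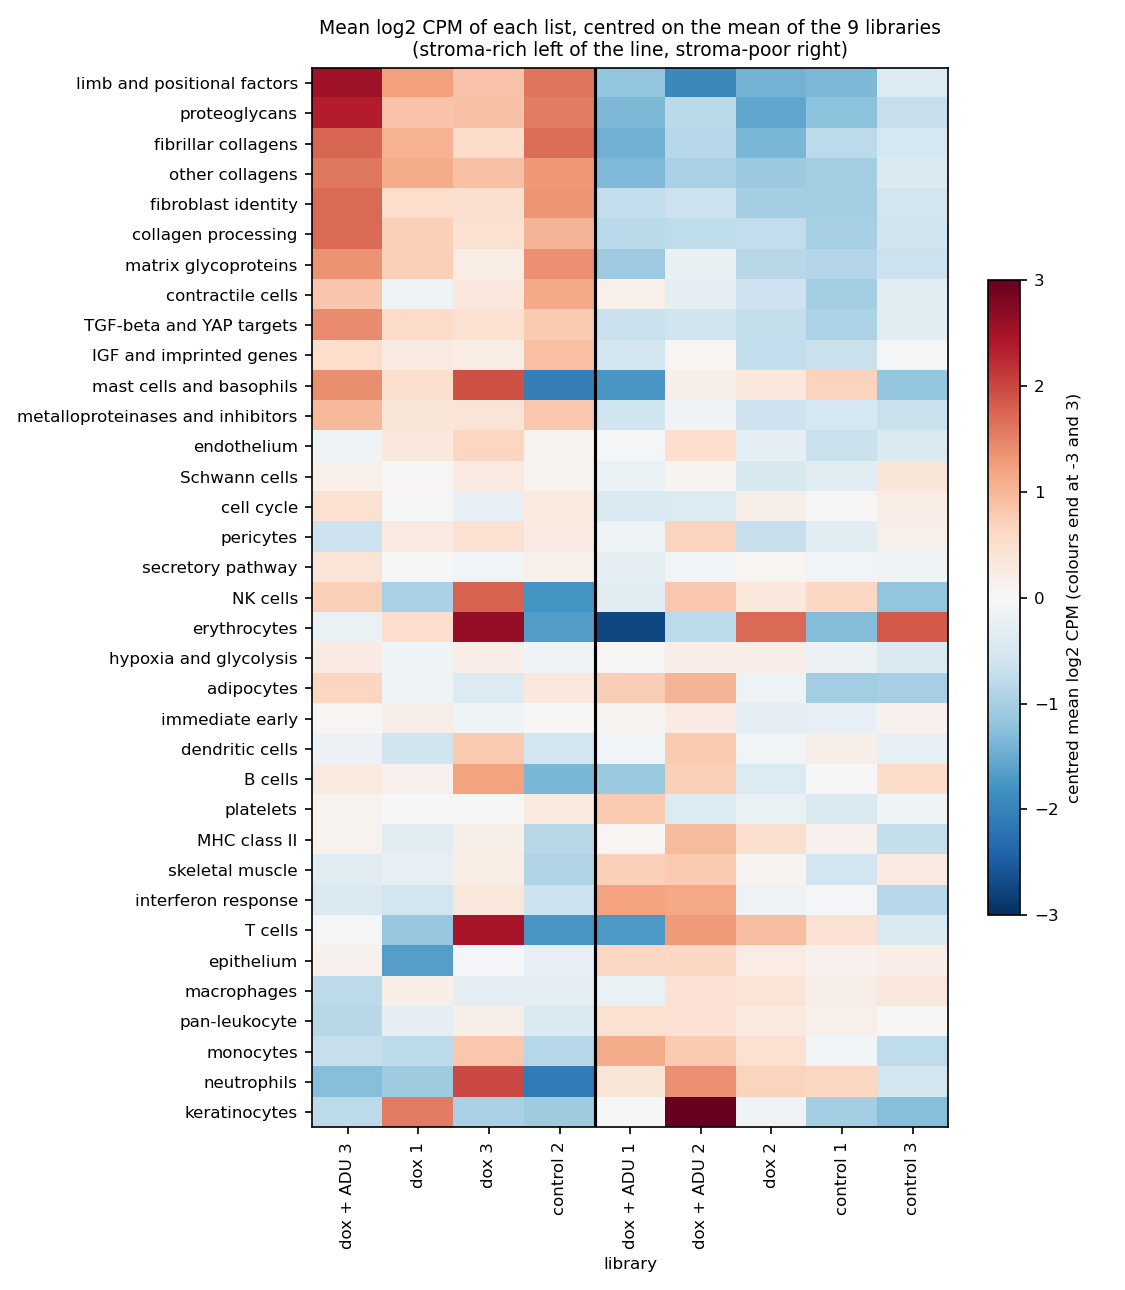
Mean log2 CPM of each gene list in each library, centred on the mean of the list over the 9 libraries, with stroma-rich libraries left of stroma-poor libraries and colours that end at 3 log2 units to each side. Matrix, fibroblast and positional lists are above their mean in all 4 stroma-rich libraries, while the neutrophil and T cell lists are highest in doxorubicin replicate 3.

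Over all genes, the 10 largest positive differences among called genes with a mean of at least 5 CPM ran from 3.74 to 4.08. Mme (chr3:63295211-63383713), the membrane peptidase CD10, had 57.2, 13.5, 19.2 and 22.1 CPM in the stroma-rich against 1.16, 1.03, 1.32, 2.29 and 5.66 CPM in the stroma-poor libraries, a log2 difference of 4.08. Angpt1 (4.05), the ligand of the endothelial receptor Tie2, had 22.5, 6.00, 6.64 and 12.0 CPM against 0.462, 0.818, 0.524, 1.17 and 1.35 CPM in the stroma-poor libraries. Irs1 (3.95), an adaptor of the insulin and IGF receptors, had 44.9, 33.0, 12.2 and 32.7 CPM against 2.81, 1.53, 1.16, 2.75 and 4.60 CPM in the stroma-poor libraries. These genes separated the sets by a wider relative margin than Col1a1. Grem1 (3.81), an antagonist of bone morphogenetic proteins, had 36.0, 10.7, 11.3 and 22.0 CPM in the stroma-rich against 1.48, 0.944, 1.80, 1.15 and 1.79 CPM in the stroma-poor libraries. Mrc2 (3.74), the receptor Endo180 that takes up collagen fragments, had 115, 39.9, 31.0 and 46.0 CPM against 5.25, 2.1, 4.11, 3.77 and 7.65 CPM in the stroma-poor libraries. Erbb2 (3.77), a receptor tyrosine kinase, Fat1 (3.76), a giant cadherin, Prelp (3.84), a proteoglycan of connective tissue, and Lox completed the group. Akap2 (4.03) is uncertain, since it overlaps a readthrough gene and was at 0 in 2 stroma-poor libraries.

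The 6 genes at the other end of the same ranking were all just past a log2 difference of -1. Ccl12 (-1.03), a chemokine for monocytes, had 111, 240, 196 and 191 CPM in the stroma-rich against 337, 286, 487, 252 and 284 CPM in the stroma-poor libraries. Jaml (-1.0), an adhesion protein of leukocytes, had 45.8, 63.2, 83.0 and 55.8 CPM against 93.5, 86.1, 151, 122 and 101 CPM in the stroma-poor libraries. Bcl2a1a (-1.01) and Bcl2a1b (-1.0), survival proteins of myeloid cells, are near-identical copies whose reads the counting could share. Moap1 (-1.01), a regulator of cell death, and Magohb (-1.14), a part of the exon junction complex with the close paralog Magoh, were the remaining genes. Lower genes were mostly faint and poorly described. Of the 49, 22 (44.9%) were long noncoding RNAs and 19 (38.8%) coded for protein, with a median level of 0.539 CPM. Of the 1315 higher genes, 91.4% coded for protein and the median level was 3.02 CPM, beside 83.1% and 14.3 CPM over all tested genes. The median genomic span of the higher genes was 31.0 kb, beside 17.9 kb over all tested genes.

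The difference between the sets was of unequal size in the 3 treatments. All 1315 genes called higher had a positive difference in each treatment group, a direction that the choice of genes fixes, and 1061 of them exceeded a log2 difference of 1 in all 3. The median difference was 3.38 in combination, 1.87 in doxorubicin and 2.22 in control tumors. For limb and positional factors the mean difference was 4.08 in combination, 2.45 in doxorubicin and 2.48 in control tumors. For fibrillar collagens it was 2.90, 2.17 and 2.34 in the same order. For pericyte genes, by contrast, it was -0.89 in combination, 1.06 in doxorubicin and 0.34 in control tumors. Each of these differences rests on 1 stroma-rich library against 2 in combination and control tumors, and on 2 against 1 in doxorubicin tumors.

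**Figure D5:**
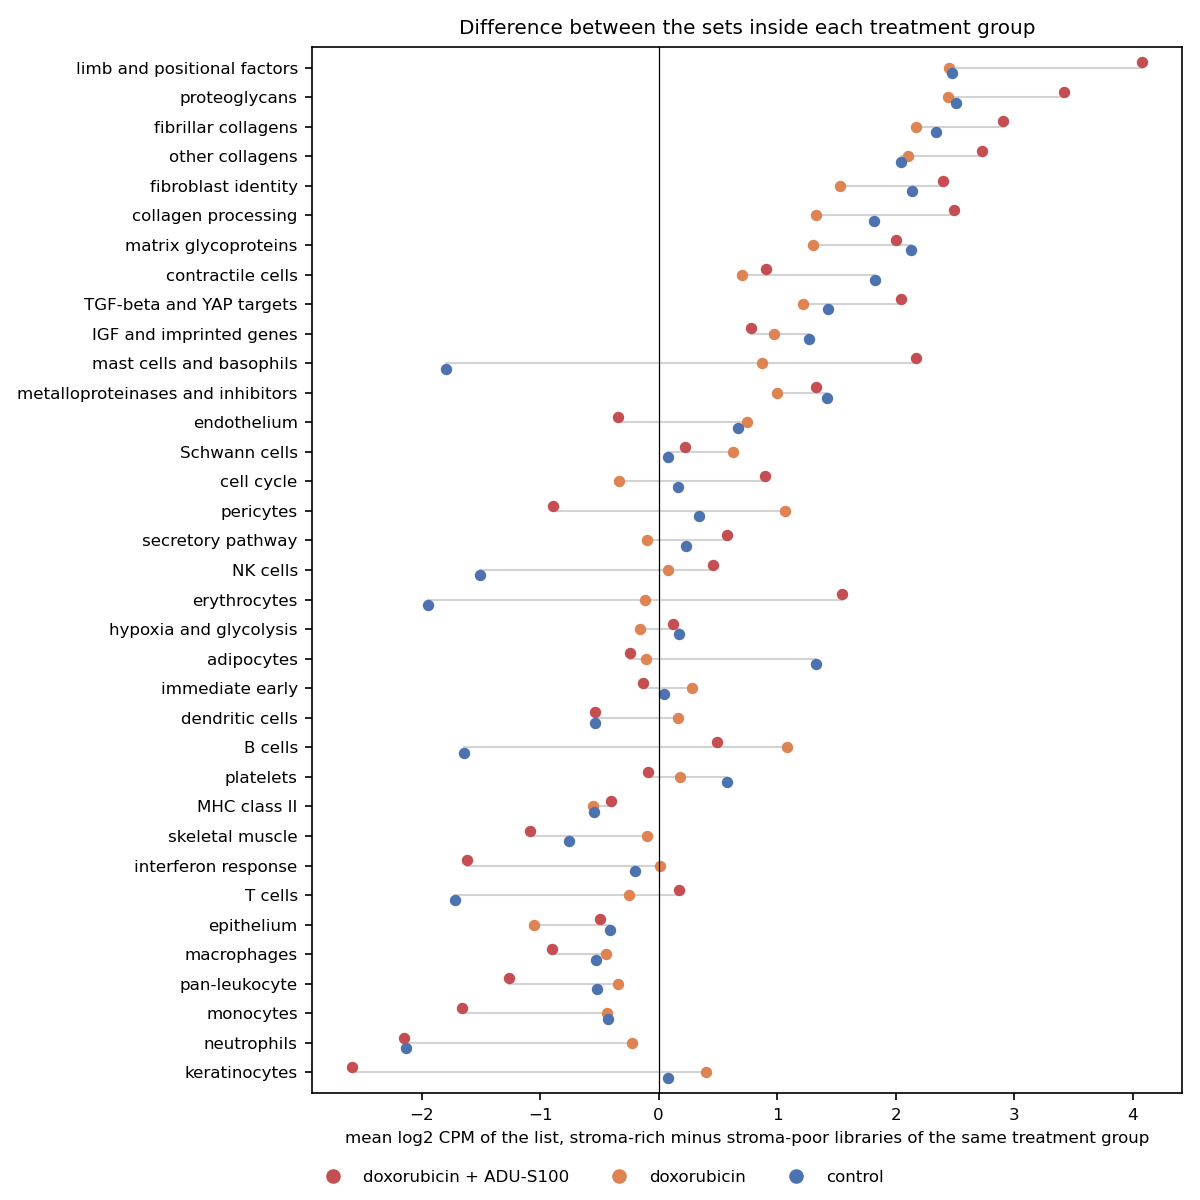
Mean log2 CPM of each gene list, stroma-rich minus stroma-poor, computed inside the combination, doxorubicin and control groups, 1 point for each treatment. Limb and positional factors lie at 4.08, 2.45 and 2.48, and lists such as pericytes lie on both sides of 0.

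Among the stroma-rich libraries, combination replicate 3 held the highest level of most genes called higher. It was the highest for 1175 of the 1315 genes (89.4%), control replicate 2 for 89, doxorubicin replicate 1 for 41 and doxorubicin replicate 3 for 10. Set directly against control replicate 2, combination replicate 3 was above it for 1209 genes and below it for 106, with a median difference of 0.79 on the log2 scale. The margin was not the same for all programs. Among called members it was 1.32 for TGF-beta and YAP targets (above in 5 of 5), 0.94 for collagen processing, 0.86 for limb and positional factors (14 of 14) and 0.83 for proteoglycans, but 0.43 for fibrillar collagens (4 of 6). Col1a1, Col1a2 and Col12a1, a collagen of tendon and stress-bearing tissue, were lower in combination replicate 3, as was Lrrc15 (0.458 CPM against 1.70 CPM in control replicate 2), a marker of cancer-associated myofibroblasts. Each side of this comparison is a single library, so treatment and library cannot be told apart in it.

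Collagen transcripts were counted in the stroma-poor libraries too, and the order of these libraries differed between genes. Control replicate 3 had the highest Col3a1 (77.1 CPM), Ccn1 (55.0 CPM) and Mme (5.66 CPM) of the 5. Combination replicate 2 had the highest Col1a1 (27.4 CPM) and Col4a1 (71.9 CPM) of the 5 but the lowest Hoxc10 (0.378 CPM) of all 9 libraries. It was also the library with the epidermal keratins.

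The sets matched the first principal component of the log2 CPM values, which held 45.0% of the variance, beside 13.4% for the second. Of the 500 genes with the largest positive loadings, 478 were called higher. These 500 were taken from all 16373 genes tested. Limb and positional factors had 10 of 15 tested members among the 500, and collagen processing had 8 of 20. Proteoglycans had 5 of 10 and fibrillar collagens had 4 of 9 among the same 500. No pan-leukocyte, endothelial or pericyte gene was among them. The negative end of the component held neutrophil genes such as Retnlg (loading -0.0264) and S100a9 (-0.0243), and keratins such as Krt1 (-0.0215). Ranked by loading from lowest to highest, the median percentile was 0.763 for neutrophil, 2.26 for keratinocyte and 7.27 for pan-leukocyte genes. The component and the sets use the same counts, so their match and these counts of list members are descriptions too.

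Treatment was not used to choose the sets, and its effect on the same genes was tested with edgeR's quasi-likelihood test over all 16373 genes. No gene passed a Benjamini-Hochberg adjusted p of 0.05 in combination versus control, in combination versus doxorubicin or in doxorubicin versus control (0% each). At an unadjusted p under 0.05 there were 727 genes (4.44%), 451 genes (2.75%) and 116 genes (0.708%) in these comparisons, of which 0, 0 and 0 were among the 1315 genes called higher in the stroma-rich libraries. DESeq2 gave 27, 9 and 2 genes at its adjusted threshold, and limma-voom gave 0 in each. The median log2 difference of the 1315 genes was 0.53 in combination versus control, 0.41 in combination versus doxorubicin and 0.12 in doxorubicin versus control, beside 0.06, 0.07 and -0.01 over all genes. Each treatment held both kinds of library, and the 1315 genes varied widely inside each treatment. They were chosen to differ between libraries of the same treatment, which widens their spread in this test. The counts of 0 among them follow largely from that choice, so nothing about treatment is read from them.

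With the stroma set as a further term in the model, the 3 treatment comparisons again gave no gene at an adjusted p of 0.05. The smallest edgeR adjusted p was 0.199 in combination versus control, 0.182 in combination versus doxorubicin and 0.988 in doxorubicin versus control, against 0.79, 0.999 and 1 without the term. Genes at an unadjusted p under 0.05 numbered 1083 (6.61%), 983 (6.00%) and 492 (3.00%), and 54, 265 and 125 of the 1315 genes were among them. This term was chosen from the same counts and takes up much of the spread of these genes, so these numbers are descriptions and not evidence of a treatment effect.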

How the data were processed

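RNA of CD45+ cells was sequenced in 9 libraries as 100-base paired reads from a stranded mRNA kit. Per the paper's methods and the submitters' processing notes, the authors' pipeline comprised read trimming (Trimmomatic 0.38), alignment to mm10 (HISAT2 2.1.0) and gene quantification (StringTie 2.1.3b), and SAMtools 1.9, Bowtie2 and HISAT are named beside them. The deposited table gives unnormalized whole-number counts of 45777 named genes, and 0 of its value columns and 0 unnamed genes were left out. StringTie obtains counts from transcript coverage, and its strand setting is not given in the sources used here, so overlapping genes may share reads. Depth was 50110494 to 69456603 counts.

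Counts were scaled with TMM in edgeR (4.0.16, R 4.3.3) and 16373 genes were kept by filterByExpr with treatment as the group. The difference between the stroma sets is the edgeR quasi-likelihood coefficient of the set with treatment as a covariate, and a gene was called when it exceeded 1 on the log2 scale and the 4 and 5 libraries did not overlap in CPM. Log2 CPM used a prior count of 2. Treatment comparisons used edgeR's two-sided quasi-likelihood test over all 9 libraries with Benjamini-Hochberg adjustment over all genes tested and a threshold of 0.05. Their p-values measure the spread between these libraries.

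The stroma sets and the 36 gene lists were chosen with earlier results of these data known. Members of a list that did not pass the filter are named or counted as listed. Single values of a few members are not reported here. A member that passed only through the libraries where it was high had to differ, so counts over members that passed are descriptions. The genes named are Col1a1, Col3a1 and Ptprc, up to 10 called genes with the largest difference in each direction among those with a mean of at least 5 CPM (predicted gene models skipped), and of each list the 4 members with the highest mean CPM and those with the largest and smallest difference. Other genes were chosen after their values were seen.

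Coordinates come from RefSeq on GRCm38.p6 by gene ID, matched for 16336 of the tested genes. The promoter windows of RefSeq, 27025 genes, were searched on both strands for the TEAD motif GGAATG and the short ETS motif GGAAGT. The CCAAT, TATA and CArG boxes, a longer ETS motif that contains the short form, and the AP-1 motif were also searched and are not described further.

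Alternatives were RLE scaling, scaling on pan-leukocyte genes, no filter on low counts, a filter of 1 CPM in at least 4 libraries, estimates by DESeq2 (1.42.0) and limma-voom (limma 3.58.1), no treatment term, the replicate number as a block, a log2 difference beyond 2, analysis without mitochondrially encoded and hemoglobin genes, and leaving out single libraries in turn. The scripts were tested on simulated data.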

Additional observations from a re-analysis of the deposited data

Results flagged for a closer look

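In 10 gene lists, every stroma-rich library was above every stroma-poor library of its treatment in 1 treatment group and below in another. The values below are the difference between the treatments in the stroma-rich minus stroma-poor mean log2 CPM. None of these differences was tested, since each side sets 1 library against 2.

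Vascular and perivascular lists ran opposite ways in doxorubicin and combination tumors. The difference was 1.95 for pericyte genes and 1.09 for endothelial genes, doxorubicin minus combination in both. For lymphatic endothelium, which had a single tested gene, it was 1.27, doxorubicin minus control. For adipocyte genes it was 1.57, control minus combination.

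Blood and leukocyte lists ran opposite ways against the control group. The difference was 3.50 for erythrocyte genes and 3.96 for genes of mast cells and basophils, combination minus control in both, and 2.73 for B cell genes, doxorubicin minus control. These lists hold genes at low counts.

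Lists of cell state also ran opposite ways in doxorubicin and combination tumors. The difference was 0.41 for immediate early genes, doxorubicin minus combination. It was 1.24 for cell cycle genes and 0.67 for genes of the secretory pathway, combination minus doxorubicin in both.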

How the results depend on the processing

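The count of genes called higher, 1315 in the main analysis, was 953 to 1440 under 8 other settings, 938 at a log2 difference beyond 2 and 1237 to 1560 when a library was left out, but 2058 when libraries were scaled on pan-leukocyte genes, which moved the median of all genes to 0.64. Of these 2058 genes, 1306 were among the 1315. The count of genes called lower, 49 in the main analysis, was 3 under leukocyte scaling, 19 with a filter of 1 CPM in 4 libraries, 6 at a log2 difference beyond 2, and 55 to 235 when a library was left out. Leukocyte scaling raised the medians to 3.55 for fibrillar collagens, 3.79 for proteoglycans, 3.43 for fibroblast identity, 1.09 for endothelium and 0.0112 for pan-leukocyte genes. The neutrophil median was -0.29 with no treatment term. The keratinocyte median changed sign to 0.95 with the 1 CPM filter and to 0.33 with the replicate block.

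When a library was left out, medians were 2.63 to 3.07 for fibrillar collagens, 2.71 to 3.40 for proteoglycans, 2.18 to 3.06 for fibroblast identity, 2.46 to 3.50 for limb and positional factors, 0.82 to 2.15 for TGF-beta and YAP targets, 0.19 to 0.72 for endothelium, -0.89 to -0.42 for pan-leukocyte genes, -2.52 to -0.80 for neutrophils and -4.68 to 0.54 for keratinocytes. The treatment comparisons gave 27, 9 and 2 genes by DESeq2 (combination versus control, combination versus doxorubicin, doxorubicin versus control) and 0 to 1 gene when a library was left out. Without doxorubicin replicate 2, combination versus control and doxorubicin versus control gave 1 gene each. The causes were not tested.

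Between libraries with the same replicate number, r across genes was 0.232, -0.521 and -0.226 for combination and control. It was -0.274, 0.383 and 0.293 for combination and doxorubicin, and -0.314, -0.596 and -0.172 for doxorubicin and control. These values were above 0 where both libraries were of the same stroma set and below 0 where they were not. They follow the sets and cannot decide whether the numbers pair the samples. With the replicate block, 1298 genes were called higher and 47 lower, and the treatment comparisons gave 0 genes each. Over all alternatives, 605 of 647 list medians moved by no more than the spread between the treatment groups. The sign changed in 63 of the 647, in 21 lists. Of these changes, 13 came with leukocyte scaling, in 13 lists, and 50 with other settings, in 14 lists. For named genes, 3306 of 3469 values stayed within that spread. Depth of 50110494 counts or more limits only the faintest genes, such as Pitx1.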

Other observations

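Further gene families separated the sets, and the genes of these observations were chosen after their values were seen. HOX genes of all 4 clusters, some of them also in the list of positional factors, were called higher, with 6 of 10 tested Hoxa, 6 of 8 Hoxb, 8 of 8 Hoxc and 4 of 5 Hoxd genes. Of the coat proteins of caveolae, membrane pits that are frequent in mesenchymal cells, 4 of 6 were called. Cav1 had 359, 96.2, 131 and 205 CPM in the stroma-rich against 43.8, 88.9, 37.4, 38.1 and 42.7 CPM in the stroma-poor libraries. Of the ephrins 6 of 7 were called, of their Eph receptors, which signal between touching cells, 5 of 6, and of the semaphorins 7 of 18, beside 8.03% of all genes. Nedd4, a ubiquitin ligase, was among the most abundant of all genes called, with 652, 229, 217 and 396 CPM in the stroma-rich against 44.4, 26.0, 36.8, 43.5 and 72.9 CPM in the stroma-poor libraries.

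Both ligands of the macrophage receptor Csf1r were called higher, while the receptor itself was not called in either direction. Csf1 had 263, 57.5, 80.4 and 101 CPM in the stroma-rich against 26.0, 24.1, 23.2, 24.2 and 29.1 CPM in the stroma-poor libraries, a log2 difference of 2.32. Il34 had 22.3, 5.36, 7.60 and 9.27 CPM against 1.18, 0.839, 1.24, 0.868 and 1.90 CPM in the stroma-poor libraries, a difference of 3.23. The receptor Csf1r had a difference of -0.50. Enzymes of fatty acid synthesis were called too, with differences of 2.01 for Fasn, fatty acid synthase, and 3.08 for Scd1, a desaturase. Msln (3.21), mesothelin, Hmga2 (2.49), a chromatin protein of embryonic tissue and sarcomas, Cd34 (2.96), a sialomucin of stromal and endothelial cells, and Fgfr1 (3.01), a growth factor receptor, were other abundant genes called higher. Which cells carried these transcripts was not tested.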
